A study of Arabidopsis thaliana with 12 samples.

Results

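A set of 10 BBX genes of *Arabidopsis thaliana* was followed through the 4 conditions of the study. They were taken by gene ID from the 34262 genes of the count table and are 10 of the 32 BBX genes: *BBX14* (AT1G68520), *BBX15* (AT1G25440), *BBX16* (AT1G73870), *BBX17* (AT1G49130), *BBX20* (AT4G39070), *BBX21* (AT1G75540), *BBX22* (AT1G78600), *BBX24* (AT1G06040), *BBX25* (AT2G31380) and *BBX32* (AT3G21150). *BBX14* was chosen by its large fitted interaction of genotype and inhibitor in these same libraries, so its values are given as a description, without a test. The interactions of the other members are treated likewise.

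Whole seedlings were sampled 5 days after germination, after 2 h of treatment, with 3 biological replicates in each group and 12 libraries in all. The wild type was Col-0. The WUS-GR line carries *mCherry-GR-linker-WUS*, a fusion of the stem cell regulator WUSCHEL (WUS) to a glucocorticoid receptor domain, under the ubiquitin promoter named pUBI10 in the labels and pUBQ10 in the methods, as 1 homozygous line selected for a single insertion. Every library, Col-0 included, received dexamethasone (DEX), the steroid that lets the fusion protein enter the nucleus. The labels give 25 µM and the methods another concentration. One pair of groups received DEX alone (Col-0 DEX and WUS-GR DEX) and the other pair DEX with 1 µM trichostatin A (Col-0 DEX+TSA and WUS-GR DEX+TSA), an inhibitor of histone deacetylases. No mock-treated library was analysed here, so neither DEX itself nor the WUS-GR line without induction was compared. The comparisons ask how these transcripts differed between induced WUS-GR and Col-0, and whether they did so when histone deacetylation was inhibited. A WUS effect below means this difference. Induced WUS activity and other traits of the line cannot be told apart in it.

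BBX proteins are zinc-binding transcriptional regulators named after the B-box, a domain used for contacts between proteins. They are best known from seedling light development, where several bind or act beside HY5, a bZIP factor that promotes light responses, and are targets of the COP1 and SPA ubiquitin ligase complex. BBX14, BBX15, BBX16 and BBX17 have a single B-box and a CCT domain, the latter also found in the flowering regulator CONSTANS. BBX20, BBX21 and BBX22 have a pair of B-boxes and promote photomorphogenesis with HY5, whereas the related BBX24 and BBX25 restrain it. BBX32, with a single B-box and no CCT domain, binds BBX21 and limits its activity.

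The 250 bases before the annotated starts of *BBX14* and *BBX15*, the nearest pair by shared letters, are shown because *BBX14* was low in WUS-GR DEX libraries and *BBX15* was not. Both genes lie on the minus strand of chromosome 1, the *BBX14* stretch at chr1:25710990-25711239 and the *BBX15* stretch at chr1:8935545-8935794 (TAIR10.1, from RefSeq), read 5′ to 3′ along the gene. Capitals mark CCAATC or its reverse complement GATTGG, which were searched for only after the sequences had been read. They hold the CCAAT of the CCAAT box with a C after it. CCAAT before another letter, which also occurs in the *BBX15* stretch, is not marked or counted.
BBX14: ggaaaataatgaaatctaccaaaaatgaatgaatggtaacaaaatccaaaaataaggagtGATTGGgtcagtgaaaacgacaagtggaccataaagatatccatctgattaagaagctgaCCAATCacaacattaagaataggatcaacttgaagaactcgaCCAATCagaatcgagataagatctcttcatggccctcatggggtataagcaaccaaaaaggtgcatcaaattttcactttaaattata
BBX15: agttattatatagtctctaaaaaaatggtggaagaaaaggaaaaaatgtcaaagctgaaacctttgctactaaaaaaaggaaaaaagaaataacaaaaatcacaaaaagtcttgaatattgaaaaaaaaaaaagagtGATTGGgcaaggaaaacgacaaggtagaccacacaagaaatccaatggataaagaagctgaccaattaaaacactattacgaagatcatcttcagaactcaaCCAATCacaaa
The *BBX14* stretch held 3 copies, beginning 190, 130 and 88 bases before the start, and the *BBX15* stretch 2, beginning 113 and 11 bases before it. The letters were in these 2 of the 10 members and in 10.2% of 27443 protein-coding genes in the same window. At least 2 copies were in 0.681% and at least 3 in 0.0547% of them. Since the letters were picked from these 2 stretches, the shares do not measure how unusual the copies are. The longest run common to both stretches was aagaagctgaccaat, 15 bases, and gagtgattggg, 11 bases, lies upstream of it in both. In windows of 250 bases before to 50 after the start, the G-box CACGTG, the motif bound by *HY5*, was found in 1 member, *BBX22*, 41 bases after its start, against 7.68% of all promoters. TTAATGG or TTAATTAA, letters bound by homeodomain proteins such as WUS, was in 0 of 10 members and 13.5% of promoters. Other letters that WUS may bind were not searched. Both strands were searched, and a match or its absence says only which letters are in the window.

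Total counts ran from 14810658 to 21578662 per library. WUS counts, which include the transgene, were 27 to 52 in Col-0 and 94664 to 142276 in WUS-GR libraries, as labelled. Scaled to a common library size as CPM, they were 5091 ± 167 in WUS-GR DEX and 7923 ± 305 in WUS-GR DEX+TSA (SD, n = 3). This difference of log2 0.62 ± 0.07 had an adjusted p of 6.99e-06 in edgeR's quasi-likelihood test. The scaling factors averaged 1.12 in WUS-GR DEX and 0.845 in WUS-GR DEX+TSA, which widens this difference. It was not fitted with library totals alone. WUS-GR was thus compared with and without TSA at different scaled WUS levels, and their part was not tested. Replicates are described by their labels and the methods as biological triplicates. Green tissue genes such as *RBCS1A* were abundant, with 6 marker genes summing to 2727 to 3273 CPM (counts scaled to a common library size) in Col-0 DEX and 4477 to 5264 in Col-0 DEX+TSA. Root hair genes *COBL9* and *EXPA7* had 0 or 1 count in every library although whole seedlings were labelled. The summed level of 5 root genes, carried by *PYK10*, was 139 to 172 CPM in Col-0 DEX and 338 to 384 in WUS-GR DEX. The root genes *SCR* and *PIP2-4* did not rise, with means of 4.01 and 0.541 CPM in Col-0 DEX and 2.95 and 0.256 in WUS-GR DEX. Neither difference passed the threshold used below. Plastid-encoded genes held 0.0778% to 0.148% of the counts in Col-0 DEX and 0.315% to 1.32% in WUS-GR DEX, and with TSA 0.143% to 0.17% and 0.421% to 1.13%. Leaving plastid and mitochondrial genes out of totals, scaling and test changed 1 call among the members, that of *BBX17* without TSA. The part of the green tissue and root markers in the results below was not tested. In whole seedlings, fewer cells of a type and less RNA per cell cannot be told apart.

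Per kilobase of exon in Col-0 DEX, *BBX22* had the highest level of the members, 228 ± 12.3 CPM per kilobase (SD, n = 3), followed by *BBX24* with 65.1 ± 5.69, *BBX21* with 45.5 ± 3.74 and *BBX20* with 13.9 ± 0.629. *BBX25*, *BBX14* and *BBX17* came next with 7.75, 6.98 and 6.59 CPM per kilobase. The replicates of *BBX14* overlapped those of both others, whereas *BBX25* was above *BBX17* in every library. *BBX15* and *BBX16*, at 2.95 and 2.47, also overlapped each other, and *BBX32* was lowest at 0.372. In WUS-GR DEX the level of *BBX14* was 0.402 ± 0.204 CPM per kilobase, and of the members only *BBX32* was lower. In both DEX+TSA groups *BBX24* was above *BBX22*, at 124 against 65.7 CPM per kilobase in Col-0 and 87.7 against 56.1 in WUS-GR.

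**Figure D1:**
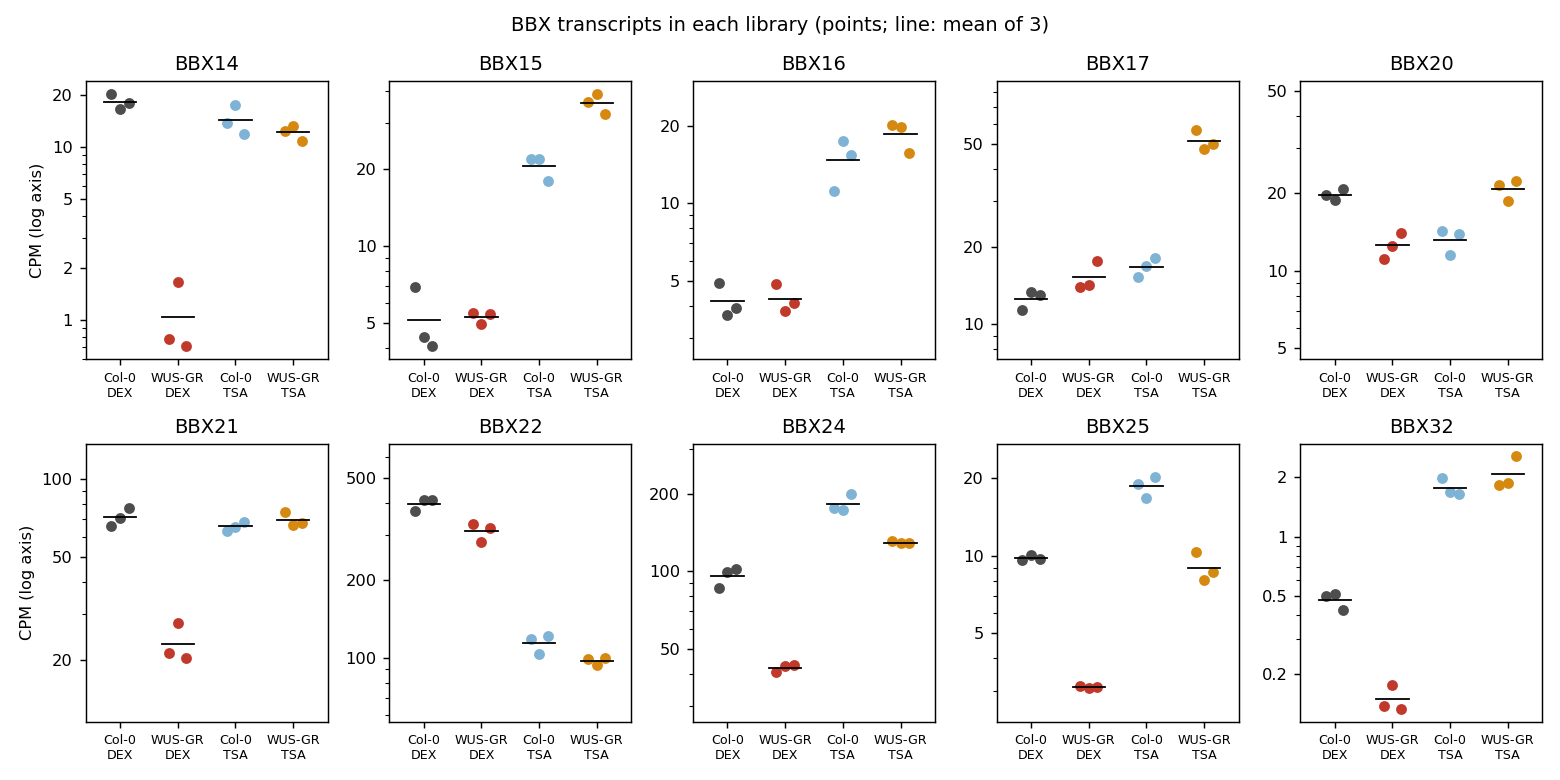
Levels of the 10 BBX transcripts in each library, in CPM on log axes that differ between panels. Points are libraries, lines are means of 3, and TSA on the horizontal axis stands for DEX with TSA. BBX14 stands between 0.708 and 1.67 CPM in WUS-GR DEX and above 10.8 CPM in every other library, whereas BBX22 is lower in all 6 libraries with TSA.

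Induced WUS-GR was first compared with Col-0 in DEX alone. Of the 8 members other than *BBX14* that passed the filter on low counts, 5 fell (*BBX20*, *BBX21*, *BBX22*, *BBX24*, *BBX25*) and 0 rose, with a median log2 fold change of -0.48 against 0.02 over all 17285 genes tested. Over all genes, 28.6% were called lower and 29.3% higher at an adjusted p under 0.05 in edgeR's quasi-likelihood test. The 5 are the members with a pair of B-boxes, which were down by factors from 1.25 to 3.12. The members with a CCT domain apart from *BBX14* were not called. This division describes the members alone. Of the other BBX genes, taken up below, 6 were higher and 6 lower. Among the latter was *BBX1*, the CCT gene CONSTANS (log2 -1.12 ± 0.33, adjusted p = 0.0148).

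*BBX14* had 20.3, 16.6 and 17.9 CPM in Col-0 DEX and 0.781, 1.67 and 0.708 CPM in WUS-GR DEX, from 326 to 380 and from 16 to 38 counts. The groups were far apart, and the second WUS-GR library was about double the others. The fitted difference was -4.08 ± 0.24 on the log2 scale, a level 16.9-fold lower, and -4.58 without that library. It was the 86th lowest of the 17285 fold changes. *BBX14* overlaps the oppositely oriented *LBD42* by 329 bases, and *LBD42* had 0 counts in all 12 libraries.

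The relatives of *BBX14* that share its domains did not pass the threshold. *BBX15*, whose product like that of *BBX14* is linked to chlorophyll and plastid regulation under *GLK1*, had 6.92, 4.40 and 4.06 CPM in Col-0 DEX and 5.47, 4.95 and 5.44 in WUS-GR DEX. These groups overlapped, with a log2 difference of 0.09 ± 0.20 and an adjusted p of 0.738. *BBX16*, which acts in branching responses to shade, had 4.93, 3.70 and 3.92 CPM against 4.87, 3.81 and 4.11, a log2 difference of 0.06 ± 0.17 (adjusted p = 0.783). The 95% intervals of these differences were -0.31 to 0.48 for *BBX15* and -0.28 to 0.40 for *BBX16*. *BBX17*, known to delay flowering with CONSTANS, had 11.4, 13.4 and 13.0 CPM in Col-0 DEX and 14.0, 14.2 and 17.6 in WUS-GR DEX. Its groups did not overlap, and its log2 difference of 0.30 ± 0.12 narrowly missed the threshold (adjusted p = 0.0503). It passed with scaling by library totals (0.36, adjusted p = 0.0217), without organelle genes (adjusted p = 0.0443), with at least 10 counts in every library (adjusted p = 0.0467) and without the first WUS-GR DEX library (adjusted p = 0.0482).

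Among the members that promote photomorphogenesis, *BBX21*, which activates *HY5* transcription, had 65.9, 70.7 and 77.6 CPM in Col-0 DEX and 21.1, 27.7 and 20.3 in WUS-GR DEX. It was 3.05-fold lower (log2 -1.61 ± 0.12, adjusted p = 3.25e-06), and the groups were well apart. Smaller falls were found for the other genes of this kind. *BBX20*, also called BZS1 and linked to brassinosteroid signaling, had 19.7, 18.9 and 20.7 CPM against 11.2, 12.5 and 14.0, a log2 difference of -0.63 ± 0.10 (adjusted p = 5.14e-04). *BBX22* (LZF1), a *HY5* partner removed through *COP1*, had 372, 409 and 408 CPM against 332, 282 and 318, a log2 difference of -0.33 ± 0.08 (adjusted p = 0.00782). In all these cases every WUS-GR DEX library was below every Col-0 DEX library, and the fall of *BBX22* was the smallest of the 5.

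The members that restrain photomorphogenesis also fell. *BBX24* (STO) had 86.5, 99.8 and 102 CPM in Col-0 DEX and 40.8, 43.0 and 43.3 in WUS-GR DEX, 2.23-fold lower (log2 -1.16 ± 0.08, adjusted p = 2.18e-06). *BBX25* (STH) had 9.61, 10.1 and 9.77 CPM against 3.12, 3.07 and 3.10, 3.12-fold lower (log2 -1.64 ± 0.12, adjusted p = 2.43e-06). The replicates of *BBX25* lay close together in both groups. It shares 48 bases with AT2G31390 on the other strand, which went from 12.4 ± 0.662 to 23.8 ± 1.28 CPM, the opposite direction. In the comparisons of TSA below, AT2G31390 rose 6.43-fold in Col-0 and 5.42-fold in WUS-GR, the direction of *BBX25* there. The part of AT2G31390 reads in the *BBX25* counts was not tested. *BBX24* shares 344 bases with AT1G06045, which had 0 counts in all libraries. *BBX32* had 8, 11 and 9 counts in Col-0 DEX and 3, 4 and 3 in WUS-GR DEX (0.478 ± 0.0461 against 0.149 ± 0.0233 CPM), too few to pass the filter, so it was not tested.

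The same comparison was then made in the presence of TSA. Of the 9 members other than *BBX14*, 3 were higher in WUS-GR (*BBX15*, *BBX17*, *BBX20*), 3 were lower (*BBX22*, *BBX24*, *BBX25*) and 3 were not called (*BBX16*, *BBX21*, *BBX32*). Over all 16873 genes tested, 27% were called higher and 27.8% lower. The median of the 9 was 0.21 and that of all genes -0.01. With scaling by library totals alone the median of all genes was -0.24 and that of the 9 members -0.03, which turned the sign of the latter.

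*BBX14* had 13.8, 17.5 and 11.9 CPM in Col-0 DEX+TSA and 12.3, 13.3 and 10.8 in WUS-GR DEX+TSA. The groups overlapped, with a fitted log2 difference of -0.25 ± 0.15. *BBX15* had 21.8, 21.8 and 17.9 CPM against 36.4, 39.2 and 32.6, 1.75-fold higher in WUS-GR (log2 0.81 ± 0.11, adjusted p = 6.95e-05). Every WUS-GR library was above every Col-0 library for this gene. *BBX17* had 15.3, 16.8 and 18.0 CPM against 56.8, 48.0 and 50.1, 3.06-fold higher (log2 1.61 ± 0.10, adjusted p = 1.27e-07), the largest rise of the members. *BBX16* ran from 11.2 to 17.5 CPM in Col-0 and from 15.7 to 20.1 in WUS-GR, and its log2 difference of 0.33 ± 0.16 was not called (adjusted p = 0.0941). It was called without the second Col-0 DEX+TSA library (adjusted p = 0.0312) or without the third WUS-GR DEX+TSA library (adjusted p = 0.0429).

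*BBX20* had 14.3, 11.5 and 13.9 CPM in Col-0 DEX+TSA and 21.5, 18.7 and 22.2 in WUS-GR DEX+TSA, 1.56-fold higher (log2 0.64 ± 0.12, adjusted p = 6.19e-04). It was thus lower in WUS-GR in every library without TSA and higher in every library with it. *BBX21* had 63.0, 65.6 and 68.7 CPM against 74.6, 66.8 and 67.5, groups that overlapped. Its log2 difference was 0.07 ± 0.08 (adjusted p = 0.499, 95% interval -0.09 to 0.24), and with scaling by library totals it was -0.16, not called either. *BBX22* was only slightly lower, with 118, 104 and 121 CPM against 98.7, 93.3 and 100.02 (log2 -0.24 ± 0.09, adjusted p = 0.0305). That call was lost without filtering (adjusted p = 0.0544) and when any library but the second Col-0 DEX+TSA one was left out (adjusted p from 0.0645 to 0.122).

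*BBX24* and *BBX25* kept their direction, each at a higher level than without TSA. *BBX24* had 176, 173 and 200.3 CPM in Col-0 DEX+TSA and 131, 129 and 129 in WUS-GR DEX+TSA, 1.43-fold lower (log2 -0.51 ± 0.08, adjusted p = 2.51e-04). *BBX25* had 19.1, 16.8 and 20.2 CPM against 10.3, 8.03 and 8.64, 2.09-fold lower (log2 -1.06 ± 0.13, adjusted p = 2.23e-05). *BBX32* had 33 to 36 counts in Col-0 and 31 to 33 in WUS-GR, 1.77 ± 0.186 and 2.09 ± 0.411 CPM, a log2 difference of 0.21 ± 0.24 (adjusted p = 0.492).

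**Figure D2:**
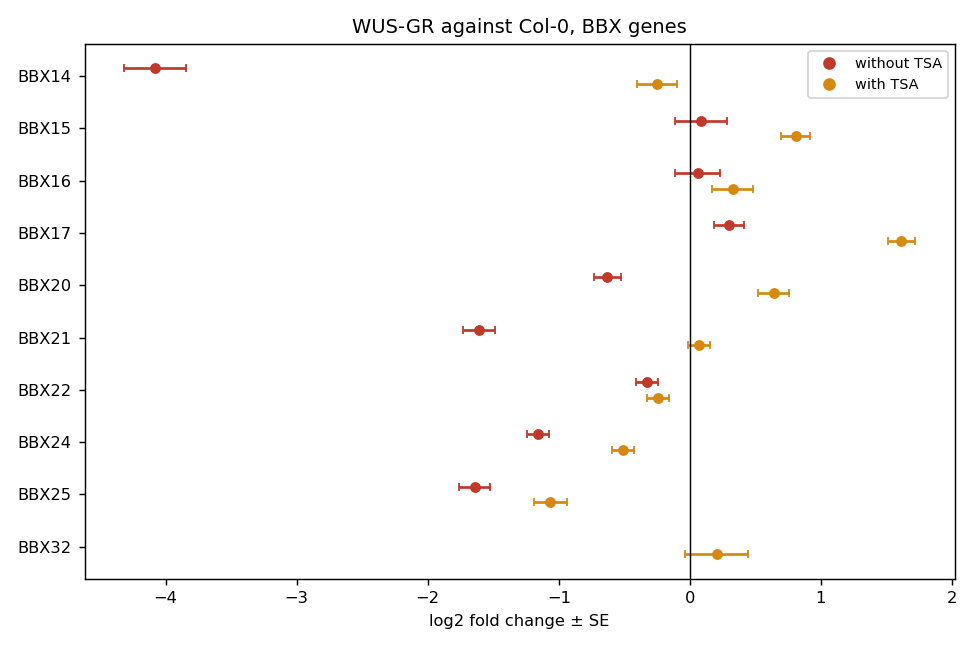
Log2 fold changes of WUS-GR against Col-0 for the 10 BBX genes without TSA and with TSA, each from a fit of 6 libraries, with bars of 1 standard error. BBX32 has no value without TSA. With TMM scaling the points with TSA lie to the right of those without TSA, from -4.08 and -0.25 for BBX14 to -0.33 and -0.24 for BBX22.

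TSA itself was compared with no TSA in Col-0. It raised 5 of the 8 members other than *BBX14* and *BBX32* (*BBX15*, *BBX16*, *BBX17*, *BBX24*, *BBX25*) and lowered *BBX20* and *BBX22*, while *BBX21* was not called. Over all 17271 genes tested, 31.7% were called higher and 32.5% lower, and the median log2 fold change was 0.67 over these 8 and 0.00 over all genes. The CCT members *BBX15* and *BBX16* rose 4.06-fold (log2 2.02 ± 0.18, adjusted p = 2.54e-06) and 3.55-fold (log2 1.83 ± 0.19, adjusted p = 6.26e-06), whereas *BBX17* rose 1.33-fold (log2 0.41 ± 0.12, adjusted p = 0.00912). *BBX14* was not among the genes whose groups separated, with a fitted log2 difference of -0.34 ± 0.15.

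*BBX24* and *BBX25*, the restraining pair, rose by almost the same factor, 1.91-fold each (log2 0.93 ± 0.10 and 0.93 ± 0.11, adjusted p = 8.43e-06 and 2.67e-05). *BBX22* fell 3.46-fold (log2 -1.79 ± 0.10, adjusted p = 5.83e-08), the strongest fall among the members, and *BBX20* fell 1.49-fold (log2 -0.57 ± 0.11, adjusted p = 0.00102). *BBX21* differed by -0.11 ± 0.09 (adjusted p = 0.293, 95% interval -0.29 to 0.07). *BBX32* went from 8 to 11 counts without TSA to 33 to 36 counts with TSA. It passed the filter only through the TSA libraries, so no test is given and it is left out of the count.

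In WUS-GR seedlings TSA raised 7 of these 8 members and lowered *BBX22*. Over all 17079 genes tested, 35.6% were called higher and 38.1% lower. The median log2 fold change was 1.58 over the 8 and -0.03 over all genes, and -0.41 over all genes with scaling by library totals. *BBX14* was 11.3-fold higher with TSA (log2 3.50 ± 0.24), and all libraries with TSA were above all without. *BBX15* rose 6.74-fold (log2 2.75 ± 0.11, adjusted p = 1.17e-09), *BBX16* 4.31-fold (log2 2.11 ± 0.14, adjusted p = 7.14e-08) and *BBX17* 3.34-fold (log2 1.74 ± 0.11, adjusted p = 3.31e-08).

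*BBX21*, which TSA did not move past the threshold in Col-0, rose 2.98-fold in WUS-GR (log2 1.57 ± 0.11, adjusted p = 1.39e-07). *BBX20* rose 1.63-fold (log2 0.70 ± 0.11, adjusted p = 7.86e-05), after a fall in Col-0. *BBX24* rose 3.01-fold (adjusted p = 2.87e-09) and *BBX25* 2.87-fold (adjusted p = 1.50e-06), while *BBX22* fell 3.24-fold (adjusted p = 4.39e-09). *BBX32* went from 3 to 4 counts to 31 to 33 counts and again has no test. The green tissue markers also moved with TSA, from 2418 to 2881 CPM in sum in WUS-GR DEX to 5473 to 5592 in WUS-GR DEX+TSA, and their part was not tested. *BBX22* moved the other way.

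**Figure D3:**
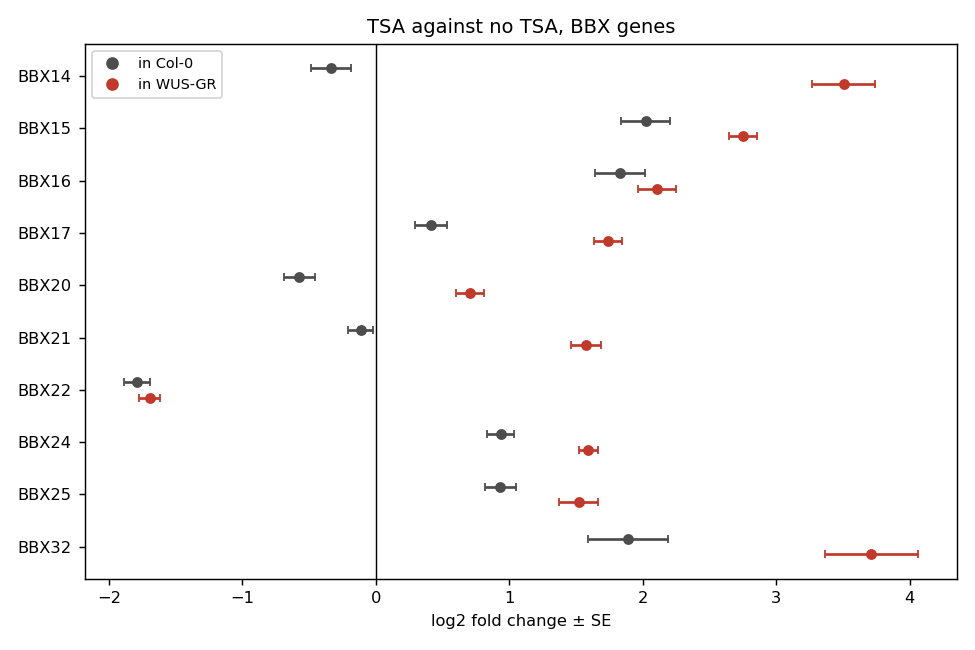
Log2 fold changes of DEX with TSA against DEX alone for the 10 BBX genes in Col-0 and in WUS-GR, each from a fit of 6 libraries, with bars of 1 standard error. BBX22 is near -1.79 and -1.70 in both genotypes, whereas BBX14 is at -0.34 in Col-0 and 3.50 in WUS-GR. The points of BBX32, which passed the filter only through the libraries with TSA, are drawn as a description.

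The difference between the WUS effects with and without TSA was fitted over all 12 libraries. This contrast chose *BBX14*, so its values are a description, and the WUS and TSA comparisons share their groups. Calls among the members are not counted for this contrast. Of all 17915 genes, 17.7% were called higher and 13.3% lower. *BBX14* had the largest value of the members, 3.86 ± 0.30, followed by *BBX32* with 1.86 ± 0.46, which rests on 3 to 11 counts in the libraries without TSA. *BBX21* had 1.71 ± 0.15, *BBX17* 1.35 ± 0.16 and *BBX20* 1.31 ± 0.16. *BBX15*, *BBX24* and *BBX25* had 0.75 ± 0.22, 0.68 ± 0.11 and 0.61 ± 0.17.

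The lowest values were those of *BBX16*, 0.30 ± 0.25, and *BBX22*, 0.12 ± 0.12. All 10 were positive with TMM scaling, but with library totals alone, which moved the median of all genes to -0.32, *BBX16* was at -0.03 and *BBX22* at -0.20. The value of *BBX14* was the 12th highest of all 17915 genes, a place that follows from its choice on this contrast. Nearest to it among genes called higher with a mean log2 CPM over 1 were 2 values. These were 6.10 for *GPT2*, a plastid glucose-6-phosphate translocator gene, and 3.78 for *KCS1*, a gene of wax synthesis.

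The rest of the family moved in both directions. Of the other 22 BBX genes, 15 passed the filter. Without TSA, 6 were higher and 6 lower in WUS-GR, and with TSA 4 and 4, read against the 29.3%, 28.6%, 27% and 27.8% of all genes given above. *BBX27* rose most without TSA, from 11.2, 9.07 and 10.4 to 23.9, 27.1 and 25.6 CPM (log2 1.35 ± 0.10, adjusted p = 3.25e-06). *BBX7*, a CONSTANS-like gene also called COL9, fell most, from 33.3, 29.4 and 34.0 to 7.54, 8.77 and 7.16 CPM (log2 -2.02 ± 0.11, adjusted p = 3.73e-07).

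With TSA, *BBX29* rose most in WUS-GR (log2 1.18 ± 0.21, adjusted p = 4.46e-04), with 2.43, 1.83 and 3.07 CPM in Col-0 and 6.26, 4.92 and 5.68 in WUS-GR. *BBX1*, which is CONSTANS itself, fell most (log2 -1.60 ± 0.32, adjusted p = 0.00109). Both are low transcripts. *BBX1* shares 1967 bases with a gene on the other strand, and the strand setting of the counting is not given in the sources used here. TSA in Col-0 raised 7 and lowered 4 of the 15, against 31.7% and 32.5% of all genes. *BBX19* rose most (log2 2.09 ± 0.29, adjusted p = 6.27e-05), from 1.12 to 1.37 CPM to 3.54 to 7.47 CPM, and *BBX8* fell most (log2 -1.50 ± 0.13, adjusted p = 1.73e-06).

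**Figure D4:**
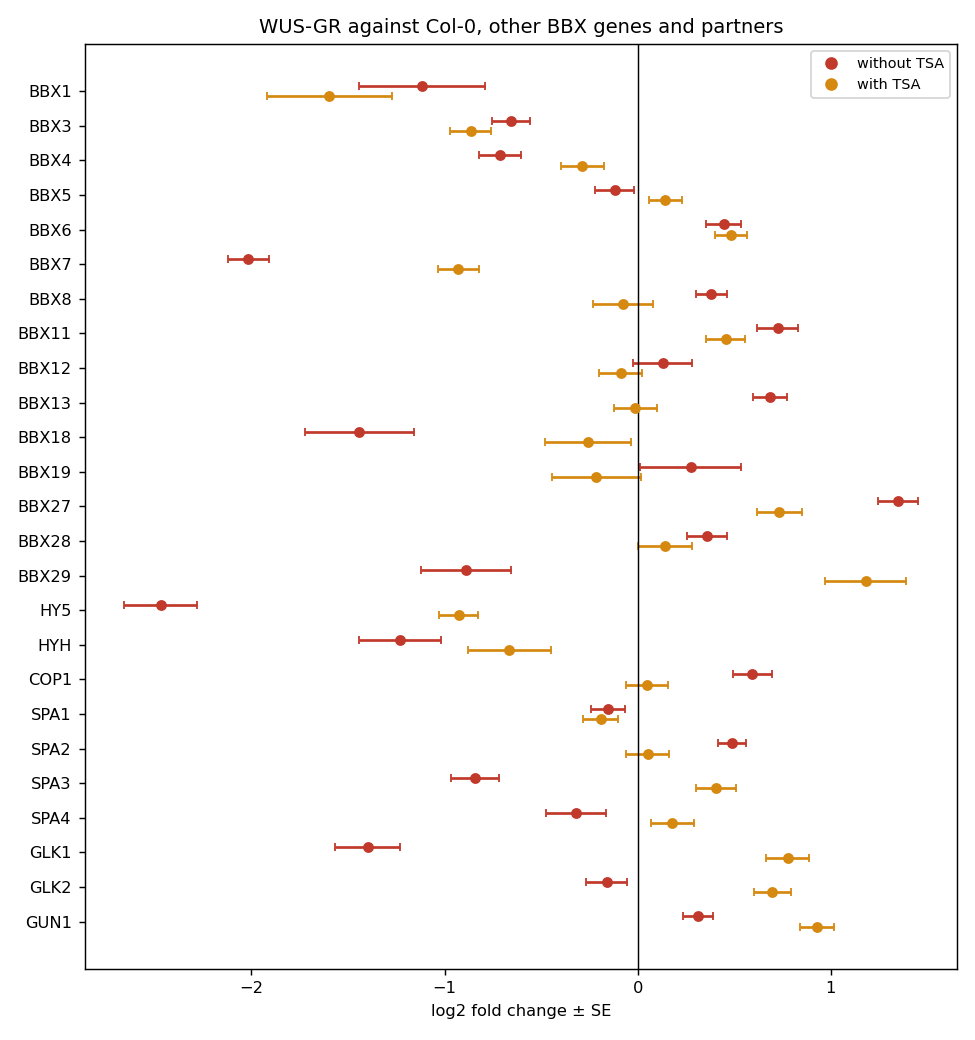
Log2 fold changes of WUS-GR against Col-0, without TSA and with TSA, for the 15 other BBX genes that passed the filter and for 10 genes of the proteins that BBX factors work with. Bars are 1 standard error. HY5 is at -2.47 without TSA and -0.93 with TSA, and BBX29 and GLK1 lie on opposite sides of 0.

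The genes of the light and plastid regulators that BBX proteins work with moved in both directions. Of 10 tested, 3 rose and 4 fell in WUS-GR without TSA, and 4 rose and 2 fell with TSA, where 29.3% and 28.6% of all genes were called without TSA and 27% and 27.8% with TSA. *HY5* fell most in both comparisons. It had 16.0, 18.0 and 15.4 CPM in Col-0 DEX and 2.39, 2.32 and 4.02 in WUS-GR DEX, 5.54-fold lower (log2 -2.47 ± 0.19, adjusted p = 3.40e-06). With TSA it had 56.7, 47.4 and 57.0 CPM against 30.6, 27.3 and 27.5, 1.90-fold lower (log2 -0.93 ± 0.10, adjusted p = 1.04e-05). *HY5* was thus lower in every WUS-GR library of either pair, and higher with TSA in both genotypes.

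*COP1*, the ubiquitin ligase that removes *HY5*, rose most without TSA (log2 0.59 ± 0.10, adjusted p = 6.88e-04). *GUN1*, a plastid signaling gene, rose most with TSA (log2 0.93 ± 0.09, adjusted p = 3.31e-06). In Col-0, TSA raised 6 and lowered 2 of the 10, against 31.7% and 32.5% of all genes, with *HY5* at log2 1.71 ± 0.11 (adjusted p = 2.04e-07) and *SPA2*, a *COP1* cofactor, at -0.78 ± 0.10 (adjusted p = 5.66e-05). In WUS-GR it raised 8 and lowered 1, against 35.6% and 38.1% of all genes.

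Many BBX transcripts vary with the time of day, so 11 clock genes are set beside them. In WUS-GR without TSA, 8 of the 11 fell and 1 rose, and with TSA 7 fell and 0 rose. Of all genes, 28.6% were called lower and 29.3% higher without TSA, and 27.8% and 27% with TSA. *RVE8*, a morning activator, fell most in both (log2 -1.21 ± 0.11, adjusted p = 8.03e-06, and -1.22 ± 0.11, adjusted p = 1.43e-06). *ELF3*, an evening complex gene, was the one that rose without TSA (log2 0.31 ± 0.07, adjusted p = 0.00441). In Col-0, TSA raised 6 and lowered 2, against 31.7% and 32.5% of all genes, with *LHY* at 1.03 ± 0.21 (adjusted p = 0.00119) and *LUX* at -0.52 ± 0.08 (adjusted p = 1.91e-04). Every WUS-GR library was below every Col-0 library of the same treatment for *RVE8*. The part of the clock genes in the BBX values was not tested.

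Genes with the profile most like *BBX14* were ranked by Pearson correlation of log2 CPM over the 12 libraries among 14159 genes, as a description, since the points fall into the 4 groups. The first were *SERAT2;2* (serine acetyltransferase, r = 0.994), *LBD38*, a repressor of nitrate-responsive genes (r = 0.993), and the receptor kinase gene *BAK1* (r = 0.993). AT4G23050, AT3G55960, AT2G37520, AT1G22930 and AT5G04170 followed, with r from 0.984 to 0.992. *BBX21* was the ninth of all genes (r = 0.983), before AT2G41890 (r = 0.983). By Spearman correlation *BBX21* had rho = 0.524 and place 2154 of the 14159, whereas the other 9 had rho from 0.678 to 0.958. *BBX21* was the only member among the first 10, and *BBX25* and *BBX24* had r = 0.866 and 0.847.

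These genes shared a low WUS-GR DEX mean with 3 similar other means, but differed in its depth. *LBD38* had mean levels of 48.0 CPM in Col-0 DEX, 6.32 in WUS-GR DEX, 42.9 in Col-0 DEX+TSA and 35.1 in WUS-GR DEX+TSA, and *BAK1* 147, 90.1, 145 and 141 CPM. Of the 10, 1 was also among the first 10 by Spearman correlation. The closest CCT relatives of *BBX14* had r = 0.425 (*BBX15*), 0.444 (*BBX16*) and 0.167 (*BBX17*).

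**Figure D5:**
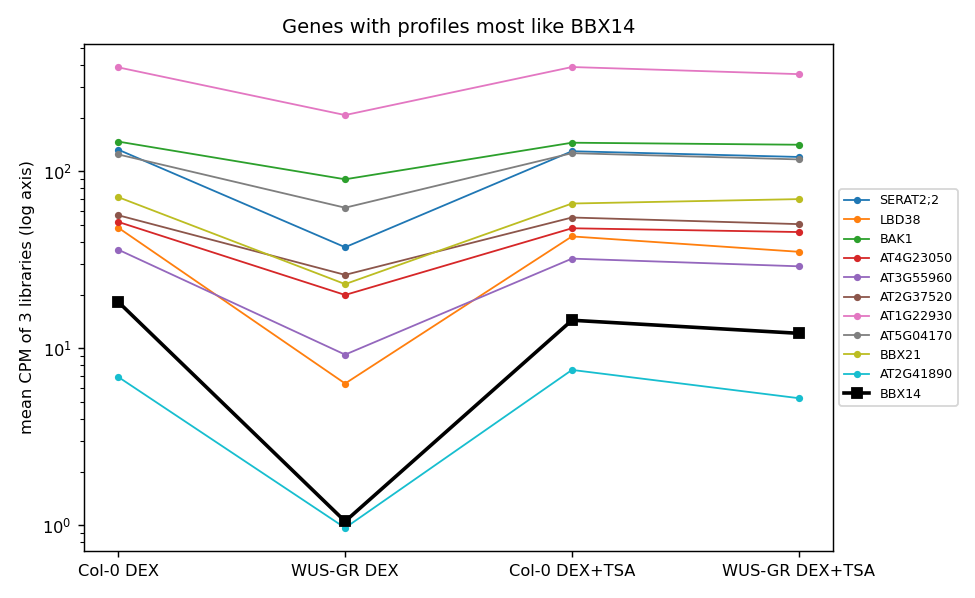
Mean CPM of 3 libraries in the 4 groups, on a log axis, for BBX14 and the 10 genes whose profiles were most like it. Heights are not corrected for gene length and are not compared between genes. Each line dips in WUS-GR DEX, by the widest margin for BBX14, from 18.3 to 1.05 CPM, and returns with TSA.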

How the data were processed

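Counts are the raw read counts per gene that the authors deposited after aligning poly(A)-selected, directional RNA-seq reads with HISAT2 to TAIR10 and counting with featureCounts, per the submitters' processing notes. The study's methods name their versions. The strand setting and the handling of multiply mapped reads are not given in the sources used here. Groups and replicate numbers came from the labels. All 12 sample columns were used.

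Levels are CPM scaled by TMM over 12 libraries. Comparisons used edgeR 4.0.16 (R 4.3.3) with TMM, filterByExpr (minimum count 10), the two-sided quasi-likelihood F-test and Benjamini-Hochberg adjustment over all genes tested at 0.05, in fits of the 6 libraries compared, or of all 12 for the interaction. Values after ± of a log2 difference are standard errors, and 95% intervals are normal ones. The fits were tested on simulated data. Alternatives were DESeq2 1.42.0, other scalings, filters and thresholds, a replicate block and leaving out each library. Named genes were all members, the largest rise and fall of each list in the WUS comparisons and of TSA in Col-0, *HY5*, and the 10 genes most like *BBX14*. *SPA3*, *SPA4*, *GLK1* and *PRR5* were added to the closing section after their values were seen. The members and lists were chosen with earlier results of these data known.

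Positions, exon lengths and promoter letters are RefSeq's for TAIR10.1, in which all 10 members matched. No 2 BBX genes that include a member shared an exonic run over 34 bases. Proteins were not compared.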

Additional observations from a re-analysis of the deposited data

Results flagged for a closer look

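Several genes had a WUS effect that differed with and without TSA, by the interaction of genotype and TSA in edgeR over 12 libraries or by opposite directions in all libraries. *BBX20*, at 1.31 ± 0.16 (log2), was lower in all 3 WUS-GR libraries without TSA and higher in all 3 with TSA, and as a member its difference was not tested. *BBX29* also turned, from -0.89 to 1.18 (difference 2.11 ± 0.31, adjusted p = 1.29e-04). *GLK1*, a regulator of chloroplast development, went from -1.40 to 0.78 (2.21 ± 0.21, adjusted p = 2.28e-06), and *SPA3* from -0.84 to 0.41 (1.28 ± 0.15, adjusted p = 1.42e-05). With scaling by library totals the *SPA3* value with TSA was 0.17 and was not called (adjusted p = 0.183). *SPA4* (0.54 ± 0.18, adjusted p = 0.0333) and *PRR5* (0.39 ± 0.10, adjusted p = 0.0103) had small differences of the same sign. The WUS effect of *SPA4* was called neither without nor with TSA, and that of *PRR5* was not called with TSA. With scaling by library totals these were not called (adjusted p = 0.362 and 0.666) and both WUS effects were negative, and the *SPA4* call was also lost when any 1 of 8 of the 12 libraries was left out (adjusted p from 0.0507 to 0.113). *ELF3* turned the other way, from higher to lower (-0.68 ± 0.13, adjusted p = 7.54e-04).

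Other genes changed in size. The WUS effect was less negative with TSA for *HY5* (1.58 ± 0.21, adjusted p = 5.69e-05), *BBX7* (1.12 ± 0.15, adjusted p = 4.91e-05) and *LUX* (0.68 ± 0.11, adjusted p = 3.21e-04). It was larger for *GUN1* (0.65 ± 0.12, adjusted p = 6.47e-04, and 0.0507 with library totals) and smaller for *BBX27* (-0.58 ± 0.15, adjusted p = 0.00996), *COP1* (-0.51 ± 0.15, adjusted p = 0.0154) and *SPA2* (-0.40 ± 0.12, adjusted p = 0.0231). The *SPA2* call was lost without the second Col-0 DEX+TSA library (adjusted p = 0.0605) or the first WUS-GR DEX library (adjusted p = 0.0558).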

How the results depend on the processing

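With library totals in place of TMM, the median of all genes moved from -0.01 to -0.24 for WUS with TSA, from -0.03 to -0.41 for TSA in WUS-GR and from 0.00 to -0.32 for the interaction. The share of called genes that were higher went from 49.2% to 28.3%, from 48.3% to 29.5% and from 57.1% to 21.5%. The medians of the members other than *BBX14* went from 0.21 to -0.025, from 1.59 to 1.21 and from 0.75 to 0.43. They include *BBX32*, which passed the filter only through the libraries with TSA. Without it the TMM medians were 0.20, 1.58 and 0.72. For WUS with TSA, *BBX21* (-0.16), *BBX32* (-0.025), *COP1* (-0.18), *SPA2* (-0.18), *SPA4* (-0.0505) and *PRR5* (-0.16) changed sign, none of them called before or after. The cause was not tested.

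For WUS without TSA, the median of -0.48 over 8 members was -0.63 without filtering, -0.65 in DESeq2 and -0.66 in a fit of all 12 libraries, where *BBX32* entered as the ninth. For TSA in Col-0 the median of 0.93 over 9 members, *BBX32* among them, was 0.68 with at least 10 counts in every library, which left *BBX32* out. With the main filter it was 0.67 over the 8 members without *BBX32*. At an adjusted p under 0.01 the interaction called 3345 in place of 5560 genes, and 5 in place of 8 of the partner genes. Of the 10 genes most like *BBX14*, 1 was shared with the Spearman ranking, and 0 members had a G-box before the start alone.

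Leaving out each library moved the median of the members other than *BBX14* between -0.72 and -0.50 for WUS without TSA and between 0.68 and 0.90 for the interaction. The interaction medians include *BBX32*. For WUS without TSA, *BBX32* was not in the main fit, with its median of -0.48, but passed the filter in some of these fits. The medians are thus not all of the same members. *BBX15* ranged from -0.057 to 0.34 and *BBX16* from -0.042 to 0.18 for WUS without TSA, with sign changes in calls that were never past the threshold. For WUS with TSA, *COP1* ranged from -0.028 to 0.14 and *SPA2* from -0.024 to 0.12.

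Replicate numbers were not treated as pairs in the main fits. Same-numbered libraries correlated between -0.27 and 0.12 in their deviations from group means, and not every pair passed 0.1 in any comparison. Differently numbered ones reached 0.0094 for WUS with TSA, below all same-numbered ones. They reached 0.17 for WUS without TSA and 0.2 for TSA in WUS-GR, above all of them. For TSA in Col-0 they reached 0.034, within the same-numbered range. Whether the numbers mark pairs cannot be told from these values. With the replicate block, 9155, 9551, 11313 and 12567 genes were called for WUS without and with TSA and TSA in Col-0 and WUS-GR. These stood in place of 10002, 9253, 11092 and 12579, and the number of members called was the same in each. For the interaction, 5721 genes were called in place of 5560. The depth limits *BBX32* and, in WUS-GR DEX, *BBX14*. P-values measure the spread between 3 libraries a group.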
